A study of Mus musculus with 2 samples.

Results

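The 8 genes described here, *H2-Aa*, *H2-Ab1*, *H2-Eb1*, *H2-DMa*, *H2-DMb1*, *H2-Ob*, *Cd74* and *Ciita*, build, load or switch on MHC class II, the surface complex that shows peptides to CD4+ T cells. They were chosen by name, and their 12 probes are every probe that carries one of these gene names among the 55662 used. Those used are the probes that are not controls and kept a spot without an outlier flag on both arrays. Of these 12 probes, 10 gave a signal well above background in both samples, so that every one of the 8 genes was measured in either genotype.

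RNA came from long-term hematopoietic stem cells (LT-HSCs) of 2-year-old C57BL/6J mice, sorted from bone marrow as CD150+CD48-Flt3-CD34- LSK (lineage-negative, Sca-1+, c-Kit+) cells, to which the study's methods add CD41-. Each genotype had 1 single-colour array. The group labelled p38KO came from CAG-CreERT2:p38α fl/fl mice, in which a ubiquitously active promoter drives a tamoxifen-dependent Cre recombinase, and tamoxifen (TAM) was injected at about 1 year of age (50 to 60 weeks). The group labelled wild-type, called p38α+/+, consisted of age-matched p38α fl/fl mice without Cre that had also received TAM, so both groups carried the floxed allele and the drug. The number of mice behind each array is not given in the sources used here. Levels are log2 signals relative to the 75th percentile of the same array, and a difference is always the p38αΔ/Δ level minus the p38α+/+ level. With 1 array per genotype there is no spread between mice, no p-value is given, and the errors printed (± SE) are those of the scanner's model for a spot, which cover measurement within an array only. A level of one probe is not compared with that of another, since probes bind with unequal strength. In bulk RNA of sorted cells, fewer cells of a type and less RNA per cell cannot be told apart.

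On both arrays, 59305 spots were not controls, 67.9% and 69.0% of the probes exceeded background clearly, 0 spots were saturated, and repeated spots of a probe gave 0.14 (log2) as the SD for comparing 1 spot with another. The targeted gene, *Mapk14*, which encodes p38α, was at 2.34 in p38α+/+ cells and 2.31 in those labelled p38KO at its brighter probe, and at 2.08 and 2.03 at the other. Neither probe was lower beyond the spread between spots, and the second array is named by its label, as labelled p38αΔ/Δ. Whether either probe lies in the deleted exons is not given in the sources used here, so these probes may not report the deletion. The study checked it separately by PCR on genomic DNA of peripheral blood cells, not of the sorted LT-HSCs, and reports a partial reduction there. All 12 HSC marker genes were well above background on both arrays.

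A class II molecule is a pair of an α and a β chain. In mice, I-A is built from H2-Aa and H2-Ab1, and I-E from H2-Ea and H2-Eb1. The invariant chain, Cd74, holds the newly made pair and fills its groove, H2-DM exchanges the last fragment of that chain for peptides, and H2-DO restrains H2-DM. Ciita is the coactivator that all of these genes need for full transcription, and it binds no DNA itself. It is recruited by factors sitting on a conserved stretch of each promoter, in which the X box is bound by RFX and CREB proteins and the Y box, an inverted CCAAT sequence, by NF-Y. B cells, dendritic cells and macrophages are the main class II-positive cells. The C57BL/6 strain carries a deleted *H2-Ea* promoter and makes no I-E.

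The shared promoter stretch is shown first, because most of the class II chain genes with a promoter window share it. RefSeq promoter windows (assembly GRCm38.p6, 250 bases before to 50 after the start) were at hand for 5 of the 8 members, *H2-Aa*, *H2-Eb1*, *H2-DMa*, *H2-DMb1* and *H2-Ob*. Each line below reads 5′ to 3′ on the strand of its gene, with GCAAC (or GTAAC), part of the X box, and ATTGG, the core of the Y box, in capitals. *H2-Oa*, the partner chain of *H2-Ob*, is added for comparison.
H2-Aa (chr17:34287852-34287924, minus strand): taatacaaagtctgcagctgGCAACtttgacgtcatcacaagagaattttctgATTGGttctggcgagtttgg
H2-Eb1 (chr17:34305756-34305827, plus strand): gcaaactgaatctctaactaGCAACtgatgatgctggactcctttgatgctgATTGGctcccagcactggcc
H2-Ob (chr17:34238798-34238867, plus strand): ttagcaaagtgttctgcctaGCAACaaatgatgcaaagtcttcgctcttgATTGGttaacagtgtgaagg
H2-DMb1 (chr17:34153077-34153149, plus strand): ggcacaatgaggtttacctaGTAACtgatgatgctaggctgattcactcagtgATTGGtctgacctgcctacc
H2-Oa (chr17:34092283-34092355, plus strand): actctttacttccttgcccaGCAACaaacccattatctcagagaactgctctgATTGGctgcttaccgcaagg

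GCAAC was followed on the gene's own strand by ATTGG, 30 to 33 bases further on, in 3 of the 5 members with a window, *H2-Aa*, *H2-Eb1* and *H2-Ob*. *H2-DMb1* had the same arrangement with GTAAC, 33 bases before ATTGG. The ATTGG began 48 bases before the start in *H2-Aa*, 59 in *H2-Eb1*, 57 in *H2-Ob* and 61 in *H2-DMb1*. Among 32544 different promoter windows of the same length, ATTGG was found on either strand in 37.4%, GCAAC in 35.1% and TGACG, part of the CREB element, in 20.9%. The pair GCAAC then ATTGG, at a distance of 15 to 40 bases on the sense strand, was found in 0.615% of them, and with any base in the second place (GNAAC) in 2.1%. The pair and its distance were set after these windows had been read, so its share describes the windows and tests nothing. TGACG occurred among the members in *H2-Aa* alone, where it was read on both strands within tttgacgtcatc. Neither of the windows of *H2-DMa* held the pair. They held GCAAC on the opposite strand at position −7 in the first and ATTGG at position −198 in the second. These matches describe letters and not binding.

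*H2-Aa*, which encodes the α chain of I-A, had the largest difference of the 8 genes under every setting but normexp, where *H2-DMa* took its place. Its signal was 110 ± 11.1 in p38α+/+ cells and 35.5 ± 3.69 on the array labelled p38αΔ/Δ, that is −0.38 ± 0.15 and −1.70 ± 0.15 on the log2 scale relative to the 75th percentile. The difference was −1.32 ± 0.21, or 2.49-fold lower. The probe lies on the minus strand of chr17:34421285-34421344 (build mm9, which the array's design uses for all probes) and begins with tttggccaattggcaagctttgacccccaa. With normexp, a model-based background correction run with an added offset of 50, which is larger than the lower of these signals, the difference was −0.62.

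*H2-Ab1*, which encodes the β chain of I-A, was lower by far less. Its brighter probe was at 2.75 ± 0.14 in p38α+/+ cells and 2.50 ± 0.14 on the array labelled p38αΔ/Δ, a difference of −0.25 ± 0.20, and the other was at 1.99 ± 0.14 and 1.57 ± 0.14, a difference of −0.42 ± 0.20. Both probes were lower on the same array, the first by little more than its scanner error. They are not separate measurements of the gene, since they overlap on the plus strand (chr17:34406296-34406355 and chr17:34406305-34406363) and share 51 aligned bases of which 50 match. The base that differs, T51C counted from the 5′ end of the brighter probe, is in capitals in the 30 bases around it.
brighter H2-Ab1 probe: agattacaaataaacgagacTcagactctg
other H2-Ab1 probe: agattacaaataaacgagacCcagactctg

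The 2 chains of I-A were set side by side. The difference of *H2-Aa* was lower than that of *H2-Ab1* at its brighter probe by 1.07 ± 0.29 on the log2 scale. With normexp this gap was 0.29, so the size of the gap depends on this setting. The scanner error given here belongs to the reported values and was not computed for normexp.

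*H2-Eb1*, the β chain of I-E, was at −0.91 ± 0.15 in p38α+/+ cells and −0.72 ± 0.15 on the array labelled p38αΔ/Δ (chr17:34453075-34453134). The difference of 0.19 ± 0.21 was smaller than its scanner error. Its partner *H2-Ea*, for which the array has 1 probe named as a pseudogene, did not clear background on either array. An I-E β chain transcript was thus measured in these cells without its α chain partner.

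**Figure D1:**
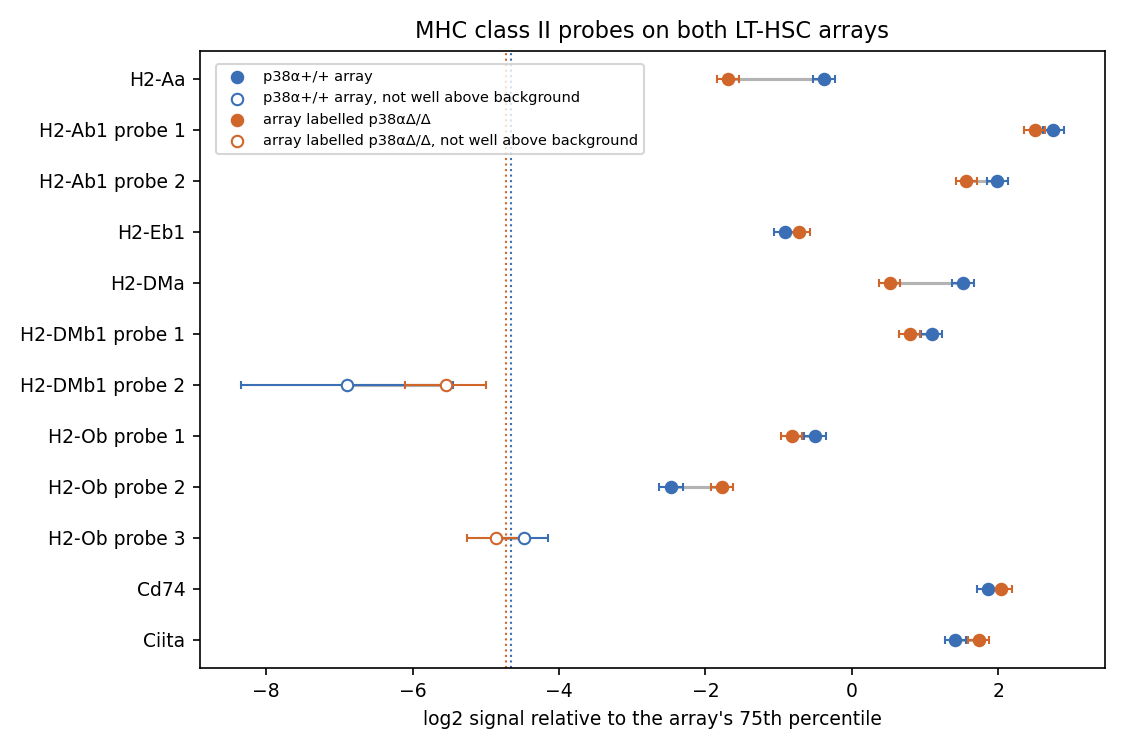
Level of each of the 12 class II probes (x axis, log2 signal relative to the 75th percentile of its array) on the p38α+/+ array (blue) and the array labelled p38αΔ/Δ (orange), 1 array each. Bars are the scanner's SE for a spot, open circles are not well above background, and dotted lines are the lowest signal well above background on each array. *H2-Aa* and *H2-DMa* show the widest gaps, both toward the p38α+/+ array, among the 10 probes with closed circles.

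*H2-DMa*, the α chain of the peptide exchanger H2-DM, had the next largest fall in level between the arrays. Its signal was 411 ± 41.1 in p38α+/+ cells and 165 ± 16.5 on the array labelled p38αΔ/Δ, or 1.52 ± 0.14 and 0.52 ± 0.14 on the log2 scale. The difference of −0.999 ± 0.20 was 1.998-fold, just short of the 2-fold limit used below. Its probe, which begins with ggaagtgagcccgaagcttgaaggtcaaat, covers 564 bases of the genome (chr17:34274300-34274863) with 60 bases of sequence and therefore crosses a splice junction.

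*H2-DMb1*, a β chain of H2-DM, was at 1.09 ± 0.14 in p38α+/+ cells and 0.79 ± 0.14 on the array labelled p38αΔ/Δ at chr17:34297109-34297168. This difference was −0.30 ± 0.20. A further probe at chr17:34290109-34290168 did not clear background on either array. The difference of *H2-DMa* was lower than that of *H2-DMb1* by 0.70 ± 0.29. The neighbouring copy *H2-DMb2* was dim, at −3.18 ± 0.19 and −2.71 ± 0.17, with a difference in the other direction of 0.47 ± 0.25. No run of 15 or more bases was shared between the *H2-DMb2* probe or the brighter *H2-DMb1* probe and any probe of another gene on the array, although the transcripts are close copies and the RNA bound by a probe can be shared.

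*H2-Ob*, the β chain of the H2-DM inhibitor H2-DO, gave opposite signs at different probes. The brightest, which crosses a splice junction (chr17:34380481-34380849), was at −0.50 ± 0.15 in p38α+/+ cells and −0.82 ± 0.15 on the array labelled p38αΔ/Δ, a difference of −0.32 ± 0.21. The second, at chr17:34382790-34382849, was at −2.47 ± 0.16 and −1.78 ± 0.15, a difference of 0.70 ± 0.22 that fell to 0.37 with normexp. The third, at chr17:34377309-34377368, did not clear background on either array. No single direction can therefore be given for *H2-Ob*. The partner chain *H2-Oa* was at −0.84 ± 0.15 and −0.75 ± 0.15, a difference of 0.09 ± 0.21 that is smaller than its scanner error. *H2-Eb2*, a further β chain gene whose promoter also held the GCAAC and ATTGG pair, was at −1.98 ± 0.15 and −2.49 ± 0.16. Its difference was −0.51 ± 0.22, and −0.09 with normexp.

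*Cd74*, the invariant chain, was at 1.86 ± 0.14 in p38α+/+ cells and 2.04 ± 0.14 on the array labelled p38αΔ/Δ. The difference of 0.18 ± 0.20 was smaller than its scanner error, and its sign was opposite to that of *H2-Aa*.

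*Ciita*, the coactivator of all these genes, was at 1.42 ± 0.14 in p38α+/+ cells and 1.74 ± 0.14 on the array labelled p38αΔ/Δ. The difference was 0.32 ± 0.20, 1.25-fold higher on the array on which *H2-Aa* and *H2-DMa* were lower, and the difference of *H2-Aa* minus that of *Ciita* was −1.64 ± 0.29 (−0.94 with normexp). Its only probe (chr16:10526568-10526627) is of low complexity, with 65.0% A. This probe shared a run of 15 or more bases with 15 probes of other genes, or of no named gene, and the longest such run was 26 bases. The longest run for any other member probe was 16. Which transcripts the *Ciita* probe bound was not tested.

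Over the members at their brightest probe, 5 genes were lower and 3 higher on the array labelled p38αΔ/Δ, and their median difference was −0.28. Over all 17201 named genes detected in this way on 1 or both arrays, the median was −0.03, and 52.3% were lower. At least 2-fold lower was 1 member, *H2-Aa*, whereas 6.62% of all genes were. At least 2-fold higher were 0 members, whereas 4.1% of all genes were. With 8 genes, a count of 1 differs little from such a background. Of the 10 probes measured on both arrays, 4 differed by more than 2 scanner SE, namely those of *H2-Aa* and *H2-DMa*, the second *H2-Ab1* probe and the second *H2-Ob* probe. The share of all genes beyond 2 scanner SE was not computed. Over all 17201 genes the quartiles of the difference were −0.38 and 0.33, so this count alone does not set the member probes apart.

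**Figure D2:**
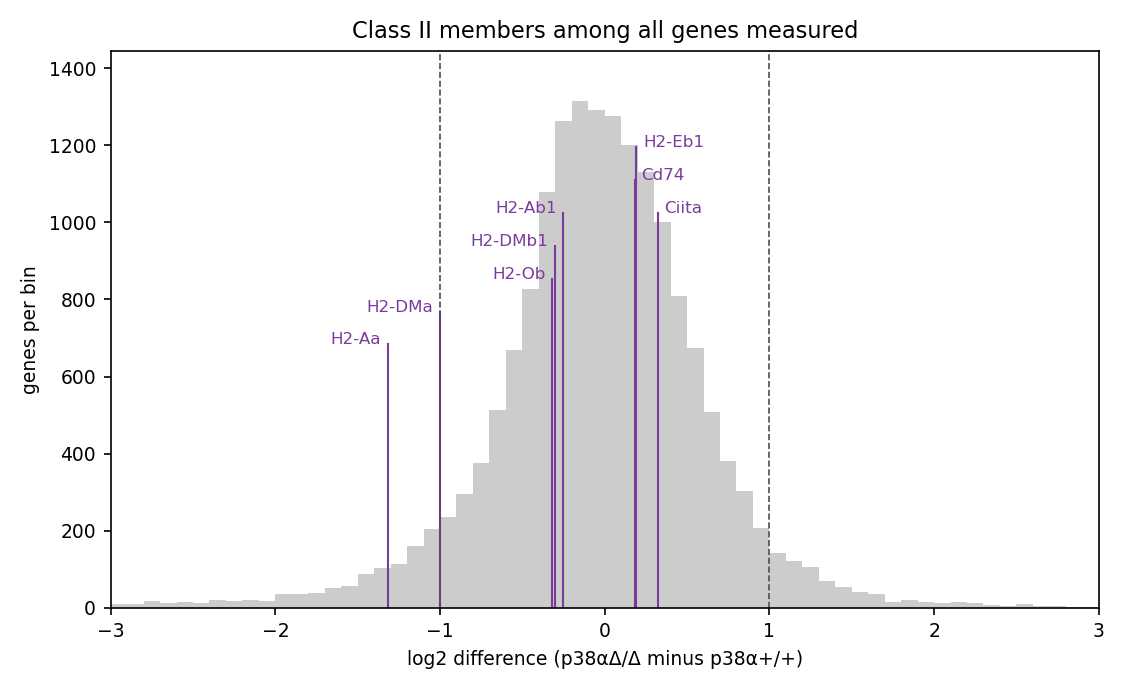
Number of genes (y axis) by log2 difference between the arrays (x axis, bins of 0.1, drawn from −3 to 3) for the 17201 named genes, 1 array per genotype. Lines mark the 8 class II members at their brightest probe, with heights set only to separate the names, and dashed lines mark the 2-fold limit. *H2-Aa* lies beyond the limit and *H2-DMa* on it, whereas the other 6 members lie between −0.32 and 0.32.

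All class II chain genes lie together on chromosome 17, interleaved with class I loading genes. The interval from the first to the last class II probe, 249 kb (chr17:34232033-34481528), holds 23 probes, of which 18 were measured on both arrays. The 11 measured class II probes had a median difference of −0.30, with 7 lower and 4 higher. The 7 other probes had a median of −0.53, with 6 lower and 1 higher. *H2-Aa* and *H2-DMa* were 147 kb apart, and probes between and beside them had differences of either sign. Among the 10 genes listed for comparison from the MHC class I pathway, several of which lie in the same interval, 8 were lower and 2 higher, and the median was −0.39. The largest falls in that list were those of *Tap1* (−1.17), *Psmb9* (−0.78) and *Psmb8* (−0.53), although *Tap1* stood at −0.43 with normexp, where it ranked below *Psmb9* (−0.83) and *Psmb8* (−0.57), and the rises were those of *Nlrc5* (0.48), the class I counterpart of *Ciita*, and *Tap2* (0.18).

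**Figure D3:**
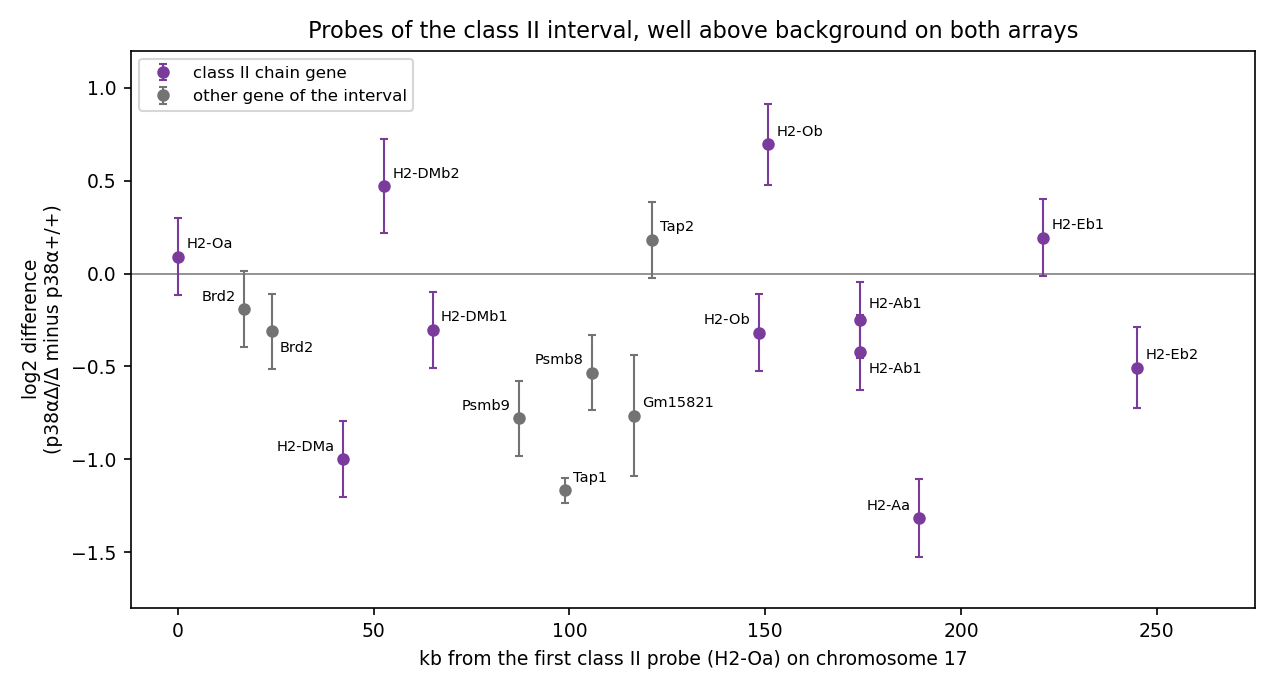
Log2 difference between the arrays (y axis, bars are the scanner's SE of the difference) for the 18 probes of the class II interval measured on both arrays, by distance in kb from the *H2-Oa* probe (x axis). Class II chain genes (violet) lie between −1.32 and 0.70 and other genes (grey) between −1.17 and 0.18, and neighbouring probes differ in sign.

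The factors that sit on class II promoters were all measured. Of these 7 genes, 5 were lower and 2 higher, with a median of −0.17. The RFX subunits were split. *Rfxank* was lower by −1.23 ± 0.22 and *Rfxap* by −1.11 ± 0.36, and both passed 2-fold. *Rfx5*, the DNA-binding subunit, was higher by 0.67 ± 0.20 at its brightest probe and −0.28 at another. With normexp *Rfxank* stood at −0.42 and *Rfxap*, a dim probe, at −0.03. *Creb1* (−0.27) followed among the falls. The remaining rise, that of the NF-Y subunit *Nfyc* (0.12, and −0.18 at another probe), changed sign when probes were averaged.

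The 10 genes that act above *Ciita*, from the interferon-γ receptor to the transcription factors, were split evenly, with 5 lower and 5 higher. Some, among them *Ifngr1*, changed sign with the processing. *Irf1* was at −0.32 at its brightest probe but 1.16 at another, and changed sign when probes were averaged. At least 2-fold higher were *Irf4* (1.45 ± 0.25) and *Irf8* (1.43 ± 0.30), factors of B cells, plasma cells and myeloid cells, which stood at 0.52 and 0.47 with normexp. *Ifngr2* was higher by 0.57, and the largest falls were those of *Irf2* (−0.55), *Spi1* (−0.54) and *Jak2* (−0.40).

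Among the 7 proteases and other enzymes that prepare peptides and trim the invariant chain, *Ctss*, the cathepsin that makes the last cut in the invariant chain in B cells and dendritic cells, went from 0.012 on the p38α+/+ array to 1.45 on the array labelled p38αΔ/Δ. The difference was 1.43 ± 0.20, or 2.7-fold, and 1.04 with normexp. *Sppl2a* (0.20) was the other gene that was higher. The 5 that were lower included *Lgmn* (−0.62, and −0.11 with normexp), *Ctsd* (−0.56) and *Ctsl* (−0.43), and the median of the list was −0.32.

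Genes that act with class II at the surface gave few measurements. *Cd80*, a costimulatory ligand, was higher by 0.83. *Marchf1*, a ubiquitin ligase that removes class II from the surface, was higher by 0.35 at its brighter probe and 1.73 at the other. *Marchf8* (0.0039) differed by less than its scanner error. *Cd86* was at −3.26 on the p38α+/+ array and did not clear background on the other array, so it was at least 2.75-fold lower, although its difference was −0.11 with normexp. *Cd40* and *Cd83* did not clear background on either array. Of the genes around Cd74 as a receptor, its ligand *Mif* (−0.45), *Cd44* (0.18) and *Cxcr4* (−0.05) were measured, *Mif* and *Cd44* with probes that differed in sign, and *Cxcr2* did not clear background on either array.

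Markers of other cells moved between the arrays, and several of those cells carry class II. All 10 B cell markers were higher on the array labelled p38αΔ/Δ, led by *Cd79a* (1.26), *Pax5* (0.69) and *Cd22* (0.54). Their summed level, in linear units of the 75th percentile, was 13.4 in p38α+/+ cells against 19.5 in the others. A sum adds probes that bind with unequal strength and follows the brightest, here *Cd22*, whose other probe was at −0.05, and without *Cd22* the sums were 2.65 and 3.82. Of the 10 B cell markers, 4 (*Ms4a1*, *Ebf1*, *Vpreb3* and *Blk*) cleared background only on the array labelled p38αΔ/Δ, so their direction followed from the filter. The 6 measured on both arrays had a median of 0.52, and *Cd79b* (0.09 ± 0.21) differed by less than its scanner error. Plasma cell markers were higher for 5 of 6 genes, with *Jchain* (3.75), *Mzb1* (1.41) and *Prdm1* (0.97) in front, *Tnfrsf17* at least 24.6-fold higher and *Xbp1* at −0.03. *Tnfrsf17* cleared background only on the array labelled p38αΔ/Δ, so its direction followed from the filter. The sums of the plasma cell list were 12.3 and 32.7. The median differences of the B cell and plasma cell lists were 0.62 and 1.19, and 0.32 and 0.76 with normexp. Over the 5 plasma cell genes measured on both arrays the median was 0.97. On the array on which these markers were higher, 5 class II members were lower, among them *H2-Aa* and *H2-DMa*, and 3 higher, among them *Cd74* and *Ciita*. Any link between the markers and the class II values was not tested.

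Of the 10 dendritic cell markers, *Itgax*, *Batf3* and *Cd209a* did not clear background on either array. The 7 others had a median of 0.22. The largest rises measured on both arrays were those of *Ccr7* (0.29 ± 0.37), *Zbtb46* (0.23 ± 0.23) and *Siglech* (0.22 ± 0.20), each smaller than or close to its scanner error. The only fall so measured was that of *Ccr9* (−1.43). The summed levels of all 10 were 26.4 and 30.2, but 1.44 and 1.28, in the other direction, without *Siglech*, the brightest. Of 10 monocyte and macrophage markers on the array, *Ccr2* was among those that did not clear background on either. *Cd14* (0.92), *C1qa* (0.84) and *C1qb* (0.72) were higher, and *Cd68* (−0.04) and *Fcgr1* (−0.03) were close to 0. *Cx3cr1* was 3.19-fold lower, with its dim side on the array labelled p38αΔ/Δ kept as measured. The sums were 30.97 and 36.2. Most of these sums came from *Csf1r*, which had probes of either sign, and without it the sums were 2.08 and 2.69. With normexp *Cx3cr1* stood at −0.29, *Ccr9* at −0.45, *Cd14* at 0.36 and *C1qa* at 0.34.

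All 7 neutrophil markers were at least 2-fold higher, with *Ltf* (2.23), *S100a9* (2.01) and *Ngp* (1.99) in front. *Retnlg* was at least 12.8-fold and *Mmp8* at least 2.74-fold higher. Both cleared background only on the array labelled p38αΔ/Δ, so their direction followed from the filter. The 5 genes measured on both arrays had a median of 1.99. The sums of the list were 5.27 and 19.97, and 1.52 and 4.83 without *S100a9*, the brightest. With normexp 3 of the 7 were at least 2-fold higher, and the median of the list was 0.96 in place of 1.99. T and NK cell markers were higher for 4 of 5 measured genes, among them *Cd3e* (1.02), *Cd4* (0.74, and −0.01 at another probe) and *Cd8a* (0.57). *Klrb1c* was at −0.53. The sums were 17.3 and 23.1, mostly from *Nkg7*, whose other probe was at −0.04, and 5.71 and 8.61 without it. Endothelial and stromal markers were split. *Col1a2* (0.64) and *Pecam1* (0.28) were higher. *Cxcl12* (−0.20, and 0.036 with normexp), *Pdgfrb* (−0.13) and *Kdr* (−0.09, and −1.94 at another probe) were lower. The sums were 7.55 and 7.62, mostly from *Kdr*, and 3.37 and 3.69 without it. Of the 12 HSC markers, 11 were lower, led by *Mecom* (−1.44, and 0.62 at another probe), *Procr* (−1.22) and *Mllt3* (−0.83), and the sums were 171 and 134. Their median was −0.76, and −0.40 with normexp. The part of these shifts in the class II values was not tested.

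**Figure D4:**
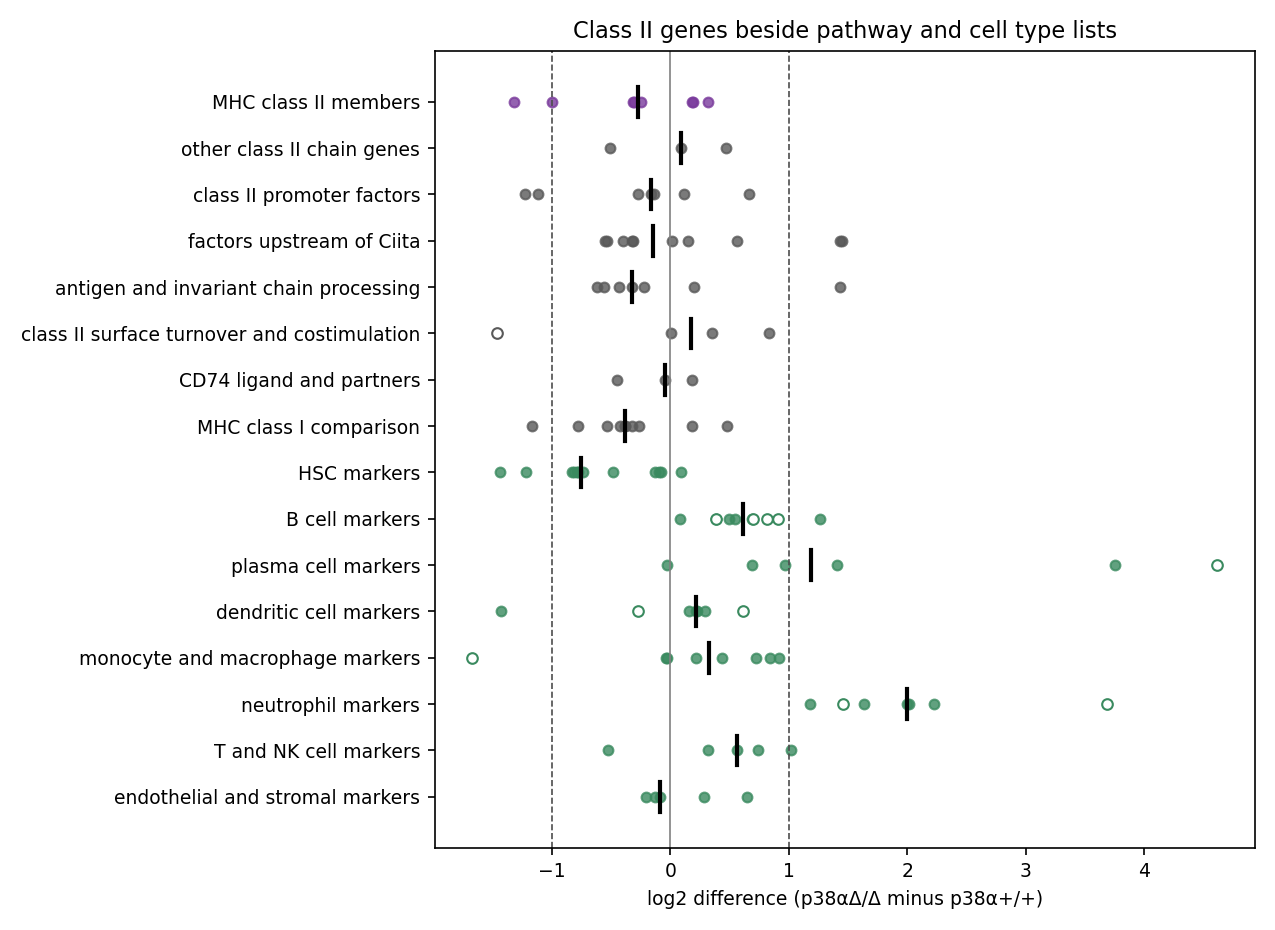
Log2 difference between the arrays (x axis) for every gene of each list, 1 point per gene at its brightest probe. Closed points were well above background on both arrays and open points on 1 array only. Open points are lower bounds, except where the dim side was kept as measured, as for *Cx3cr1*. Black bars are list medians and dashed lines the 2-fold limit. The class II members (violet, median −0.28) spread to both sides of 0, whereas B cell, plasma cell and neutrophil markers (green) lie to the right with medians of 0.62, 1.19 and 1.99, which were 0.32, 0.76 and 0.96 with normexp. Over the closed points alone these medians were 0.52, 0.97 and 1.99.

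The signs of the 10 member probes held under the 3 alternatives that move probes unequally (quantile, loess and normexp), whereas the size of the *H2-Aa* difference did not. It ran from −1.35 to −0.62. That of *H2-DMa* was −0.82 with normexp and stayed within its scanner error of the reported value under each alternative. *Cd74* ran from 0.13 to 0.24 and *Ciita* from 0.31 to 0.37.

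**Figure D5:**
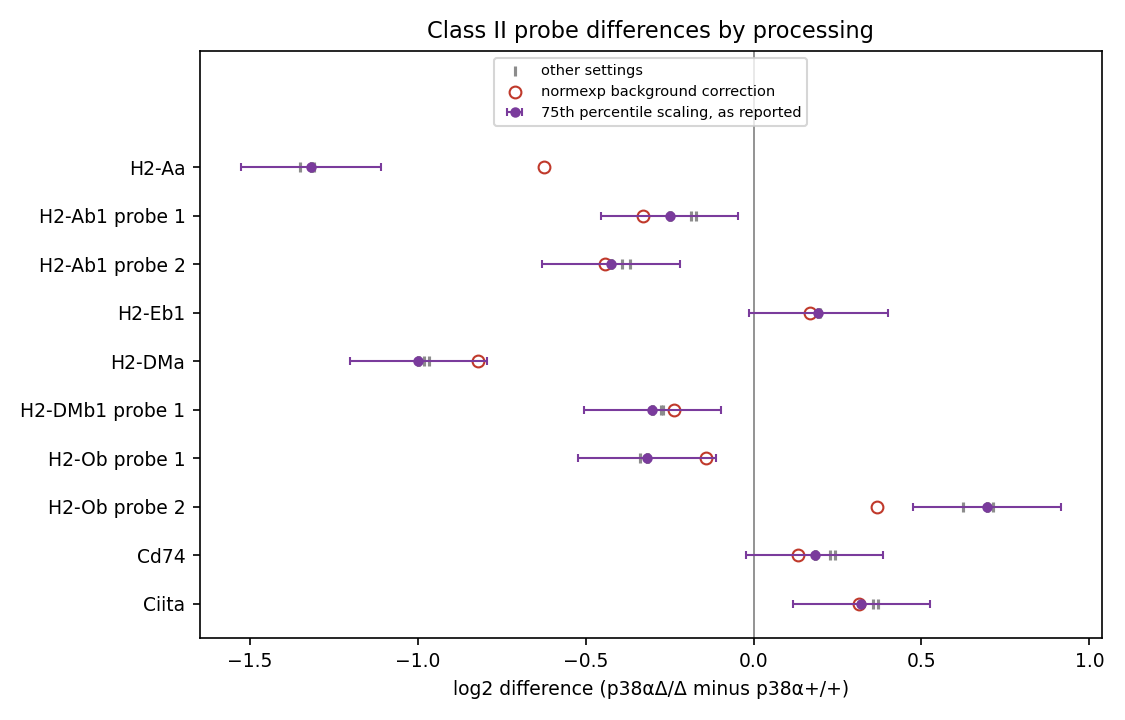
Log2 difference between the arrays (x axis) for the 10 member probes measured on both arrays, as reported (violet, bars are the scanner's SE), with normexp background correction (red circles) and with the other alternatives (grey ticks). No probe changes sign, and *H2-Aa* moves from −1.32 to −0.62 with normexp.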

How the data were processed

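The authors deposited, for each of 2 single-colour (Cy3) Agilent arrays on the same slide and scan, the scanner intensity of every spot, background-subtracted and detrended by the scanner software but not normalized between the arrays. Per the labels' processing notes this was Agilent Feature Extraction 11.5.1.1. A second deposited file lists 35795 probes as normalized log2 values, each column being the log2 intensity minus a constant (7.16 and 6.84) close to the array's 75th percentile. RNA extraction and hybridization were outsourced.

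Control spots and spots with outlier flags were left out, spots of a probe were averaged on the log2 scale, and each array's 75th percentile over probes was subtracted. A gene was represented by its brightest probe over both arrays and kept when well above background on at least 1 array. A dim side under the array's lowest signal well above background was raised to that signal, which makes the fold a lower bound. A dim side above that signal, as for *Cx3cr1*, was kept as measured. Names came from the array, updated through a RefSeq table of assembly GRCm38.p6. Exon and UTR positions of the mm9 probes are not given, since no annotation of that build was used here. Named are every member, every other class II chain gene, *Mapk14* and, in each list, the 3 largest rises and falls among genes measured on both arrays. Genes well above background on 1 array only were added when they differed at least 2-fold. Genes named because they were not well above background or because their bound stayed under 2-fold were chosen after their values were seen. A few list genes and 1 probe sequence are not reported here. The members and lists were chosen with earlier results of these data known.

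As alternatives, the arrays were centred on the median of detected probes, quantile normalized, or joined by loess (span 0.3), normexp (offset 50) or the authors' values were used, probes were filtered on both arrays or not at all, flagged spots were kept, and probes of a gene were averaged. The steps were tested on simulated data. The number of arrays, 1 per group, limits the precision. Calculations ran in R 4.3.3 with limma 3.58.1 and in Python 3.11.15 with statsmodels 0.14.6, numpy 2.4.6 and pandas 2.3.3.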

Additional observations from a re-analysis of the deposited data

How the results depend on the processing

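Of the 8 alternatives that keep single probes, 5 leave the 10 member probe values as they are or shift all by 1 constant of at most 0.0031, so that only quantile normalization, loess and normexp could change them unequally. No probe changed sign under these 3. Those that moved by more than their scanner error were both with normexp, *H2-Aa* at −0.62 and the second *H2-Ob* probe at 0.37. The count of members at least 2-fold lower was 1, but 0 with normexp and 2 with centring on the median of detected probes, where *H2-DMa* crossed the limit. With normexp the share of all genes at least 2-fold lower was 0.744%. The median over the members was −0.060 when probes of a gene were averaged, since *H2-Ob* then changed sign, which gave 4 members lower and 4 higher. Under the other alternatives it ran from −0.28 to −0.19. The median of the factors above *Ciita* turned to 0.032 with normexp and 0.083 with the mean of probes, settings added for this list after seeing the data. No paired analysis was possible because each group has 1 array, and for the same reason no replicate could be left out. Normexp was run with its offset of 50 only, so the parts of the correction and of the offset in these shifts were not tested.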
